A study of Rattus norvegicus with 9 samples.

Results

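Transfer RNAs are cut into shorter RNAs whose levels can be measured by small RNA sequencing. Cleavage in the anticodon loop, for example by angiogenin in stressed cells, leaves the stress-induced fragments called tiRNAs, and cuts closer to the ends leave the shorter tRFs. Such fragments are abundant in brain, and some are known to slow translation or to bind Argonaute proteins. The fragments described here are the 8 tags AS-tDR-007412, AS-tDR-007744, AS-tDR-007683, AS-tDR-007556, AS-tDR-007881, AS-tDR-007516, AS-tDR-007639 and AS-tDR-008499, of 530 listed in all. They were chosen by name, as the fragments that adjoin in the row order of the tables and together hold the largest share of tags of any such set, with the share in sham known. Their abundance is therefore a description and was not tested. The sequence and the parent tRNA of each were not used here, so no role is given to any of them.

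The libraries came from male Sprague-Dawley rats, 3 libraries in each of 3 groups, from tissue surrounding the right globus pallidus 21 days after surgery. Sham rats had 2.5 µl of saline infused there. ICH rats had 0.5 U of collagenase type VII in the same volume, which opens vessel walls and causes an intracerebral haemorrhage. ICH + BYHWD rats had that haemorrhage and 4.36 g/kg of Buyang Huanwu Decoction, a herbal medicine, into the stomach daily for 21 days. All 3 groups shared the anaesthesia, the drilled hole and the needle track, and the labels describe no gavage for sham or ICH. The labels do not say whether a library is 1 rat or a pool, so any p-value covers the spread among libraries, which may be technical. In such bulk tissue, fewer cells of a type and less RNA per cell cannot be told apart. The tissue label could not be checked against marker genes, since only tRNA fragments were listed.

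Each library had between 530827 and 1066616 tags, and the listed fragments held 71.2 to 80.6% of them. Levels are given as deposited TPM, which is the tag count divided by the library's total of tags, times 1000000. Every one of the 8 fragments was above 0 in all 9 libraries, as were 311 of the 530. The lowest member count was 2108 tags, for AS-tDR-007412 in ICH 3, where the 95% Wilson interval was 4.26% of the level to either side. Such intervals cover counting error only, and a few orders between 2 libraries that lay within them are named as such.

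The 8 fragments filled the first 80 of 2122 rows of every table as 10 repeats of the same 8 names. The order of names was identical in the 10 repeats, with no other fragment between them, so no non-member could touch 2 or more repeats. That order is used throughout, from AS-tDR-007412 in first place to AS-tDR-008499 in last. The sources used here do not say what a repeat stands for, and each fragment was counted once.

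Together the 8 fragments held 19.5, 23.7 and 18.4% of all tags in sham 1, 2 and 3. In ICH 1, 2 and 3 they held 16.3, 19.1 and 17.7%, and in ICH + BYHWD 1, 2 and 3 they held 10.9, 17.2 and 15.7%. The mean share was 20.5% ± 2.82 for sham libraries, 17.7% ± 1.41 for ICH libraries and 14.6% ± 3.29 for ICH + BYHWD libraries (SD, n = 3). ICH 2 lay above sham 3 and ICH + BYHWD 2 above ICH 1, so neighbouring groups overlapped. Each ICH + BYHWD library lay below each sham library, but the share in sham was known when the set was picked, so nothing is read from that gap. The 95% Wilson interval of a library's share was at most 0.104 percentage points to either side. The lowest share, in ICH + BYHWD 1, and the highest, in sham 2, differed 2.18-fold.

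**Figure D1:**
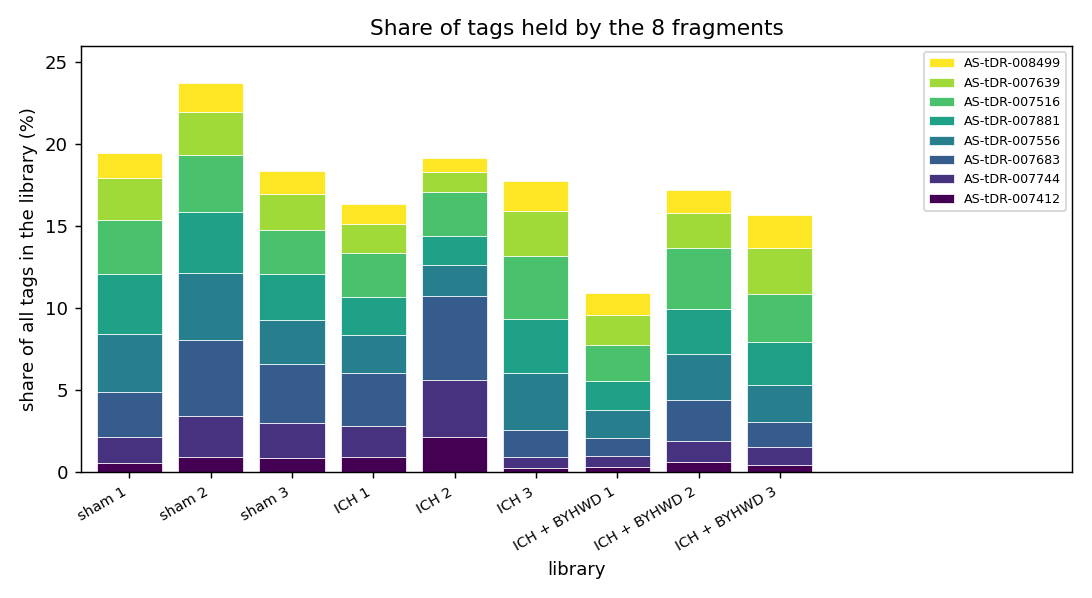
Share of all tags (%, y axis) held by the 8 fragments in each of the 9 libraries (x axis), stacked in row order from AS-tDR-007412 at the bottom to AS-tDR-008499 at the top. The height of a stack runs from 10.9% in ICH + BYHWD 1 to 23.7% in sham 2, and the 3 lowest segments together are widest in ICH 2 and narrow in ICH 3.

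By mean level over the 9 libraries the members ranked between 3 and 20 among the 530 fragments, with 10 other fragments between them. AS-tDR-007516 was the highest of them, at 30617 TPM and rank 3, followed by AS-tDR-007683 at 29027, AS-tDR-007556 at 27590 and AS-tDR-007881 at 27464 TPM. AS-tDR-007639 had a mean of 22105, AS-tDR-007744 of 16925 and AS-tDR-008499 of 14658 TPM, and AS-tDR-007412 was the lowest at 7773 TPM and rank 20. The order among members was not fixed. AS-tDR-007881 led the set in sham 1, AS-tDR-007683 led it in sham 2, sham 3, ICH 1 and ICH 2, and AS-tDR-007516 led it in ICH 3 and in all 3 ICH + BYHWD libraries.

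The 3 fragments in first places varied most, and their spread was widest within the ICH group, as was that of every other member except AS-tDR-007516. AS-tDR-007412 stood at 5603, 9307 and 8615 TPM in sham 1 to 3, at 9072, 21627 and 2373 TPM in ICH 1 to 3, and at 2933, 6112 and 4311 TPM in ICH + BYHWD 1 to 3. Its highest and lowest values in the whole series were thus both in ICH, in libraries 2 and 3, and differed 9.11-fold. Within sham its spread was 1.66-fold and within ICH + BYHWD 2.08-fold. AS-tDR-007744 stood at 15454, 24789 and 21402 TPM in sham, at 19243, 34527 and 6551 TPM in ICH, and at 6610, 13006 and 10742 TPM in ICH + BYHWD. ICH 2 was again highest, ICH 3 and ICH + BYHWD 1 were lowest and within counting error of each other, and each ICH + BYHWD library lay below each sham library. AS-tDR-007683 stood at 27660, 46740 and 35633 TPM in sham, at 31829, 51069 and 16835 TPM in ICH, and at 10904, 25102 and 15475 TPM in ICH + BYHWD. Here too ICH 2 was highest and sham lay above ICH + BYHWD without overlap. Of all fragments tested, 3.08% were lower in ICH + BYHWD than in sham without overlap. The set was also picked with its share in sham known. The SD of log2 TPM over the 9 libraries was 0.97 for AS-tDR-007412, 0.83 for AS-tDR-007744 and 0.75 for AS-tDR-007683. These stood at percentiles 94.2, 91.0 and 88.1 of the SDs of the 311 fragments.

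The 3 fragments in middle places were steadier. AS-tDR-007556 stood at 35712, 40378 and 27395 TPM in sham, at 23523, 19350 and 34387 TPM in ICH, and at 17080, 27727 and 22756 TPM in ICH + BYHWD. ICH 2, the highest library for the first 3 fragments, was here the lowest of its group, and ICH 3 the highest. Sham 3 and ICH + BYHWD 2 were within counting error of each other (Wilson half-widths 439 and 389 TPM), so whether these groups overlapped was not resolved. AS-tDR-007881 stood at 36489, 37515 and 27482 TPM in sham, at 23279, 17699 and 33132 TPM in ICH, and at 17930, 27463 and 26189 TPM in ICH + BYHWD. Sham 3 and ICH + BYHWD 2 were within counting error of each other (Wilson half-widths 440 and 387 TPM), so a separation of these groups was not resolved. AS-tDR-007516 stood at 33024, 34942 and 27248 TPM in sham, at 26657, 26487 and 38432 TPM in ICH, and at 22118, 37201 and 29442 TPM in ICH + BYHWD. All 3 groups overlapped, and the highest library was 1.74 times the lowest, the smallest such ratio among the 8 members. Its SD of log2 TPM was 0.27, at percentile 11.9 of the 311 fragments.

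The 2 fragments in last places moved against the first 3 within ICH. AS-tDR-007639 stood at 25337, 26175 and 21934 TPM in sham, at 17789, 12504 and 27744 TPM in ICH, and at 18329, 21464 and 27672 TPM in ICH + BYHWD. ICH 2 was the lowest library, and ICH 3 and ICH + BYHWD 3 were the highest and within counting error of each other, and the groups overlapped. AS-tDR-008499 stood at 15426, 17252 and 14022 TPM in sham, at 11849, 8208 and 17935 TPM in ICH, and at 13080, 14091 and 20057 TPM in ICH + BYHWD. Its lowest library was again ICH 2, and its highest was ICH + BYHWD 3. The SDs of log2 TPM were 0.38 for both.

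**Figure D2:**
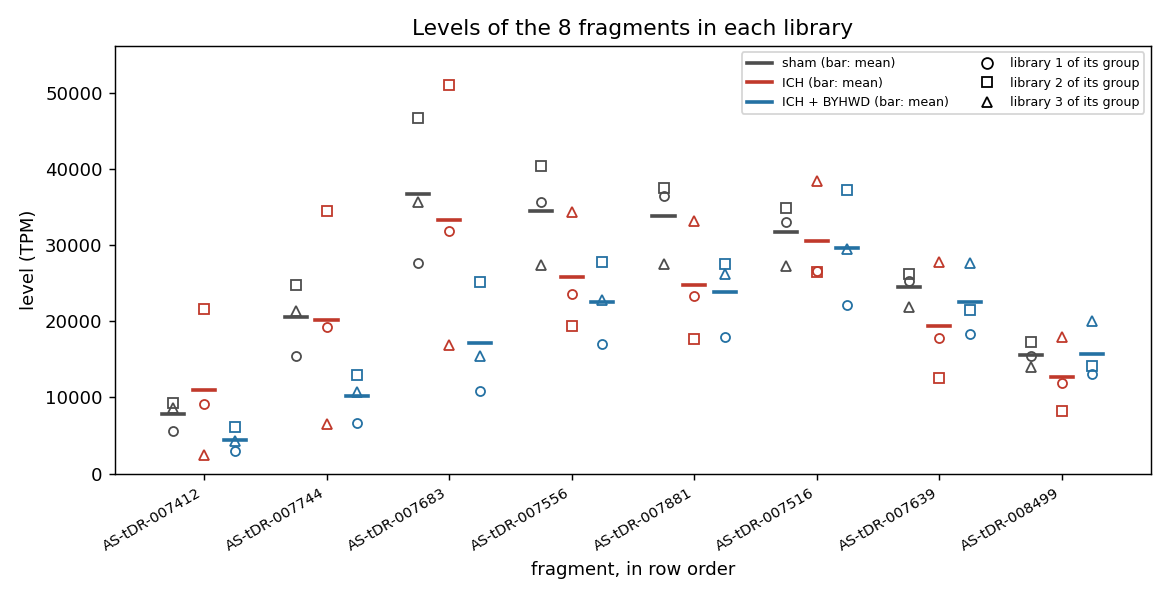
Level of each of the 8 fragments (TPM, y axis from 0) in row order (x axis), with 1 symbol per library, coloured by group, and a bar at the mean of the 3 libraries. In ICH the 3 symbols of AS-tDR-007412 spread from 2373 to 21627 TPM and those of AS-tDR-007516 from 26487 to 38432 TPM, with library 2 at the top for the first 3 fragments and at the bottom for the other 5, for AS-tDR-007516 within counting error of library 1.

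The make-up of the set therefore differed between libraries more than its sum did. The first 3 fragments held 25.0, 34.1 and 35.7% of the set's tags in sham 1 to 3, 36.8, 56.0 and 14.5% in ICH 1 to 3, and 18.8, 25.7 and 19.5% in ICH + BYHWD 1 to 3. The last 2 fragments held 20.9, 18.3 and 19.6% in sham, 18.2, 10.8 and 25.8% in ICH, and 28.8, 20.7 and 30.5% in ICH + BYHWD. For the first 3, ICH 2 and ICH 3 were the highest and lowest of all 9 libraries, and for the last 2, ICH 2 was the lowest and ICH + BYHWD 3 the highest. As a share of all tags, the first 3 together ran from 2.04 to 10.7%, a 5.24-fold range, and the last 5 together from 8.42 to 15.6%, a 1.85-fold range. These sums over part of the set were formed after the values were seen, so they are given without a test.

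Ratios between some neighbours in the row order varied little. The level of AS-tDR-008499 was 0.609 to 0.725 times that of AS-tDR-007639, a 1.19-fold range over the 9 libraries. AS-tDR-007881 was at 0.915 to 1.15 times AS-tDR-007556, a 1.26-fold range, although these fragments alone varied 2.12-fold and 2.36-fold. Between the ends of the row order the ratio was far less constant: AS-tDR-008499 was at 0.380 times AS-tDR-007412 in ICH 2 and at 7.56 times in ICH 3, a 19.9-fold range. Not every neighbouring pair was steadier than pairs farther apart. The ratio of AS-tDR-007556 to AS-tDR-007683, the step from the first 3 fragments to the middle 3, had a 5.39-fold range, while AS-tDR-007639 to AS-tDR-007881, 2 places apart, had a 1.52-fold range.

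Averaged by distance, covariation over the 9 libraries fell along the row order. Pearson's r of log2 TPM averaged 0.80 over the 7 pairs in neighbouring places, 0.56 over the 6 pairs 2 places apart, 0.29 over the 5 pairs 3 places apart and -0.024 over the 4 pairs 4 places apart. It averaged -0.37 over the 3 pairs 5 places apart and -0.59 over the 2 pairs 6 places apart, and it was -0.69 for the pair at the ends. Single pairs did not all follow their averages. The neighbours AS-tDR-007683 and AS-tDR-007556 had r = 0.32, and AS-tDR-007516 and AS-tDR-007639 had 0.62. Farther apart, AS-tDR-007412 and AS-tDR-007683 had 0.90 at 2 places, and AS-tDR-007881 and AS-tDR-008499 had 0.72 at 3 places. The averages are descriptions of points that share the same libraries and the same library totals. With the group means subtracted the averages were 0.76, 0.46, 0.15, -0.15, -0.51, -0.70 and -0.74 in the same order. These deviations were pooled over the 3 groups and were largest in ICH, where AS-tDR-007412 had an SD of log2 TPM of 1.61 against 0.39 in sham and 0.53 in ICH + BYHWD, so the order was not shown for each group.

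**Figure D3:**
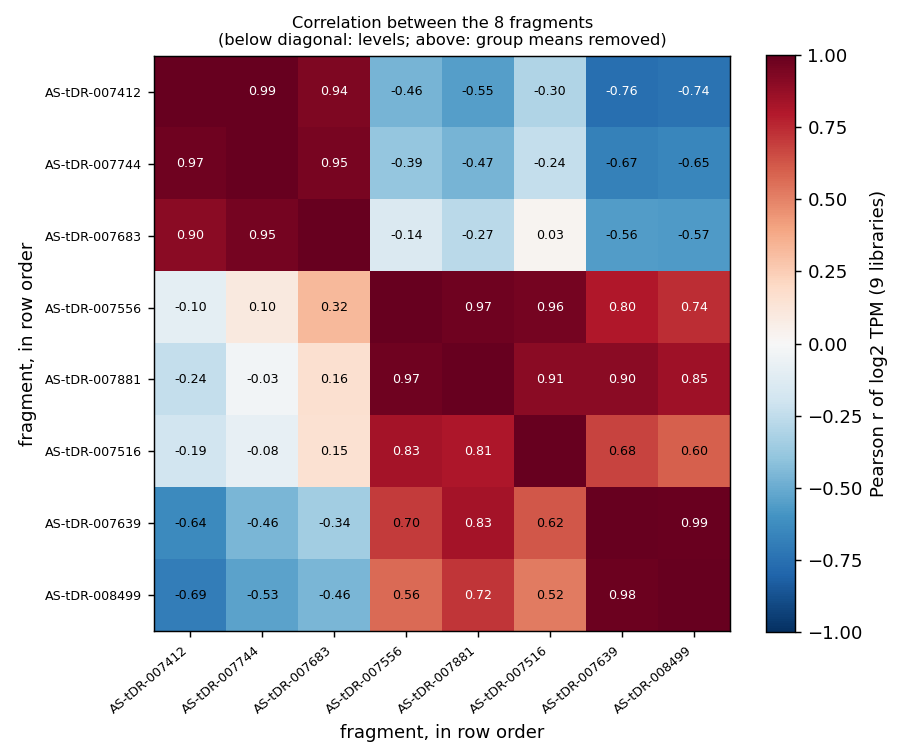
Pearson's r of log2 TPM over the 9 libraries for each pair of the 8 fragments, both axes in row order and colour from -1 (blue) to 1 (red), with levels below the diagonal and group means removed above it. On average, values are highest next to the diagonal and lowest toward the corners, down to -0.69 below the diagonal and -0.76 above it. The neighbours AS-tDR-007683 and AS-tDR-007556 drop to 0.32 below the diagonal and -0.14 above it.

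For all 48205 pairs of the 311 fragments, r was set against the 362880 possible pairings of the 9 libraries (exact permutation test, both sides). Benjamini-Hochberg adjustment over these pairs called 12.1% of them at an adjusted p under 0.05. That share rested on single libraries and on the scaling: it was 1.01% without ICH 2, 4.77% without ICH 1, 6.66% without ICH + BYHWD 3 and 3.34% on log2 CPM with TMM factors. Of the 28 pairs of members 6 were called, all 6 with a positive r, and the median r was 0.24 against 0.20 over all pairs. AS-tDR-007639 and AS-tDR-008499 had r = 0.98 and rho = 0.97 (exact permutation p = 1.1e-05 and 0.00017, adjusted p of r = 0.0039). AS-tDR-007412 and AS-tDR-007744 had r = 0.97 and rho = 0.97 (exact permutation p = 4.1e-05 and 0.00017, adjusted p of r = 0.0049). AS-tDR-007556 and AS-tDR-007881 had r = 0.97 and rho = 0.95 (exact permutation p = 4.4e-05 and 0.00035, adjusted p of r = 0.0051). Without the 2 libraries farthest from the median of the first-named fragment, these 3 correlations were 0.94, 0.97 and 0.95. AS-tDR-007683 joined AS-tDR-007744 with r = 0.95 and rho = 0.95 (exact permutation p = 0.00010 and 0.00035, adjusted p of r = 0.0071), and 0.96 without 2 libraries. It joined AS-tDR-007412 with r = 0.90 and rho = 0.92 (exact permutation p = 0.00087 and 0.0013, adjusted p of r = 0.017), and 0.96 without 2 libraries. The last pair called was AS-tDR-007881 with AS-tDR-007639, at r = 0.83 and rho = 0.73 (exact permutation p = 0.0037 and 0.031, adjusted p of r = 0.037), which fell to 0.67 without ICH 2 and ICH + BYHWD 1.

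The negative correlations between the ends did not pass, and those of AS-tDR-007412 rested on ICH 2 and ICH 3. AS-tDR-007412 and AS-tDR-008499 had r = -0.69 and rho = -0.53 (exact permutation p = 0.041 and 0.15, adjusted p of r = 0.17). Without ICH 2 and ICH 3, r was -0.13. Between AS-tDR-007412 and AS-tDR-007639 r was -0.64 and rho -0.55 (exact permutation p = 0.066 and 0.13, adjusted p of r = 0.22), and without the same libraries r was 0.067. On log2 TPM 11 of the 28 pairs were negative, as were 38.2% of all pairs of the 311 fragments, so nothing particular to the set is read from that count. With the group means removed, 14 of the 28 were negative. Scaling mattered as well, with 12 negative on linear TPM and 5 on log2 CPM with TMM factors. In this last scaling the factor of ICH 2 was 0.647 and the others ran from 0.856 to 1.18. On that scale the pair at the ends had r = -0.35, while AS-tDR-007744 had 0.98 with AS-tDR-007412 and 0.97 with AS-tDR-007683, and AS-tDR-007556 had 0.98 with AS-tDR-007881.

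AS-tDR-007516, the most abundant member and the steadiest over the 9 libraries, was looked at against every other fragment. It was not the steadiest within sham or within ICH + BYHWD. Its SDs of log2 TPM there were 0.19 and 0.38, against 0.14 and 0.30 for AS-tDR-007639. With the 310 tests adjusted together, 0 of them (0%) passed an adjusted p of 0.05, and 36 had an unadjusted exact permutation p under 0.05, 2 of them members. Adjusted over all pairs instead, of which 12.1% were called, AS-tDR-007516 had 3 positive partners and 0 negative ones. Without ICH 1 or without ICH 2 it had 0 of either. Without ICH 3 it had 0 positive and 1 negative, and without ICH + BYHWD 1 it had 7 and 0. The 5 other fragments most like it, by Pearson's r of log2 TPM over the 9 libraries, were AS-tDR-007960 (0.87), AS-tDR-010056 (0.85), AS-tDR-009633 (0.82), AS-tDR-010031 (0.82) and AS-tDR-007789 (0.81). Their rho lay between 0.82 and 0.92, their exact permutation p between 0.0027 and 0.010, and each had an adjusted p of 0.39. Without ICH 3 and ICH + BYHWD 1, r lay between 0.61 and 0.77. Among the members, AS-tDR-007556 came at rank 3 of 310 with r = 0.83 and AS-tDR-007881 at rank 8 with r = 0.81. AS-tDR-007639 and AS-tDR-008499 came at ranks 28 and 42. AS-tDR-007683, AS-tDR-007744 and AS-tDR-007412 came at ranks 177, 253 and 262, with r of 0.15, -0.079 and -0.19.

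The number of fragments called as partners of a member rested on single libraries, and on ICH 2 above all, as did the share called over all pairs. Of all 48205 pairs, 12.1% were called, 5372 with a positive and 481 with a negative r. Among all pairs, AS-tDR-008499 was correlated at an adjusted exact permutation p under 0.05 with 72 fragments positively and 0 negatively, and AS-tDR-007639 with 45 and 1. AS-tDR-007412 had 5 positive and 20 negative partners, AS-tDR-007744 had 5 and 14, and AS-tDR-007683 had 6 and 5. AS-tDR-007556 had 11 and 6, and AS-tDR-007881 had 12 and 13. Without ICH 2, AS-tDR-008499 had 2 positive partners, AS-tDR-007639 had 1, and no member had more than 3 positive or 2 negative ones. Only 1.01% of all pairs were called without ICH 2, so that fall is not read as a result about the members. AS-tDR-008499 and AS-tDR-007639 had 17 and 7 positive partners without ICH 1, and 19 and 17 without ICH + BYHWD 3. Without ICH + BYHWD 1 these counts rose to 85 and 63. On log2 CPM with TMM factors AS-tDR-008499 had 7 positive and 1 negative, AS-tDR-007639 had 2 and 0, and AS-tDR-007412 had 6 and 2. The median r with all 310 other fragments was -0.54, -0.46 and -0.40 for the first 3 fragments, and 0.53 and 0.52 for AS-tDR-007639 and AS-tDR-008499. TPM values of a library share 1 total, and the part of this in the negative values was not tested.

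For comparison, the 6 fragments of the row set with AS-tDR-001297 had 0 negative correlations among 15 pairs (r from 0.0090 to 0.98). The row set with AS-tDR-000052 had 9 fragments, 8 of them above 0 in all libraries, with 7 negative pairs of 28 (r from -0.89 to 0.998). A mix of positive and negative covariation was thus also found in another abundant set, and 38.2% of all fragment pairs were negative. The difference between sets was not tested.

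The comparison of ICH with sham asked what the haemorrhage left at day 21. In the edgeR fit of all 9 libraries, 0 of 8 members passed an adjusted p of 0.05, and 0% of the 455 fragments tested did. Without sham 3 the same edgeR fit called 44 fragments, 40 higher and 4 lower, with 0 members among them. AS-tDR-007412 averaged 11024 ± 9774 TPM with haemorrhage and 7842 ± 1969 TPM without (SD, n = 3), and its fitted log2 difference was 0.88 (SE 0.80, edgeR adjusted p = 0.73). Without ICH 2 that difference was -0.36, and those of AS-tDR-007744 and AS-tDR-007683 went from 0.31 and 0.17 to -0.59 and -0.54. In that fit TMM also took ICH + BYHWD 2 in place of sham 1 as its reference library, and its part was not tested. AS-tDR-007881 averaged 24704 ± 7814 and 33829 ± 5521 TPM, with a log2 difference of -0.34 (SE 0.22, edgeR adjusted p = 0.59). AS-tDR-007556 averaged 25753 ± 7762 and 34495 ± 6577 TPM, with a log2 difference of -0.30 (SE 0.23, edgeR adjusted p = 0.71). Differences of the other 5 members lay between -0.25 and 0.31 on the log2 scale, with SEs of 0.21 to 0.65. Those of AS-tDR-007744, AS-tDR-007683 and AS-tDR-007516 changed sign without scaling factors, which also moved the median of all fragments from -0.019 to -0.23. Of the 8 members 4 lay above 0 and 4 below, and their median log2 fold change was -0.058, against -0.019 over all fragments. Without scaling factors 7 lay below 0, with a median of -0.31. The set was picked with its share in sham known, so nothing is read from these directions and medians. The unadjusted p was under 0.05 for 0 members and for 9.01% of the fragments tested (3.74% lower). DESeq2 called 17 fragments and limma-voom 0, none of them members. In no member did the ICH and sham libraries separate on TPM, where 4.84% of all fragments tested were higher and 8.35% lower without overlap.

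ICH + BYHWD against ICH asked what the decoction changed in rats with a haemorrhage. The first 3 fragments had the lowest values relative to ICH, but none passed the test. AS-tDR-007412 averaged 4452 ± 1594 TPM with the decoction and 11024 ± 9774 TPM without (SD, n = 3), and its fitted log2 difference was -1.85 (SE 0.81, edgeR adjusted p = 0.53). AS-tDR-007744 averaged 10119 ± 3243 and 20107 ± 14008 TPM, with a log2 difference of -1.50 (SE 0.67, edgeR adjusted p = 0.53). AS-tDR-007683 averaged 17160 ± 7247 and 33244 ± 17161 TPM, with a log2 difference of -1.42 (SE 0.57, edgeR adjusted p = 0.53). For these 3 fragments ICH 1 and 2 lay above every ICH + BYHWD library. ICH 3 lay below every one of them for AS-tDR-007412, within counting error of the lowest for AS-tDR-007744 and among them for AS-tDR-007683, so the groups overlapped. Leaving out 1 library moved the log2 fold change of AS-tDR-007412 between -2.37 and -0.62, that of AS-tDR-007744 between -1.97 and -0.60 and that of AS-tDR-007683 between -1.82 and -0.72. The value nearest to 0 was the one without ICH 2 in each case, and the farthest the one without ICH 3. Without ICH 2 the reference library of TMM also changed, from sham 1 to ICH + BYHWD 2, and without ICH 3 it stayed sham 1. The effect of a library's own level and that of the reference were not told apart. Without any 1 sham library, which is outside this contrast, AS-tDR-007412 had -1.46. In these fits TMM took ICH + BYHWD 3 in place of sham 1 as its reference library, and the part of that was not tested. The next 3 fragments had -0.47 (SE 0.23), -0.32 (SE 0.22) and -0.35 (SE 0.23), and the last 2, AS-tDR-007639 and AS-tDR-008499, had -0.037 (SE 0.21) and 0.057 (SE 0.21), of which the first was positive without scaling factors. The first 3 fragments had lower fitted values than the other 5. The median over the 8 was -0.41, against -0.087 over all 455 fragments, and 7 of 8 lay below 0, as did 52.1% of all. Without scaling factors the members' median was -0.085 against 0.22 over all fragments, and the last 2 fragments had 0.25 and 0.35.

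Of the members, 0 passed in this comparison, as did 0% of fragments. In edgeR's quasi-likelihood test, 1 member, AS-tDR-007683, had an unadjusted p under 0.05, as had 6.59% of the fragments tested (2.2% lower). DESeq2 called 6 fragments and limma-voom 0, none of them members. On TPM, 0 members were free of overlap, where 11.4% of all fragments tested were higher and 1.32% lower in ICH + BYHWD without overlap. The ICH libraries that set these values also differed in other measures. ICH 2 had the largest share of listed tags, 80.6%, and the lowest TMM factor, 0.647, while ICH 3 had 73.0% and the highest factor, 1.18. The part of these features in the result was not tested.

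ICH + BYHWD against sham asked whether treated rats still differed from sham. All 8 members had a fitted log2 fold change below 0, with a median of -0.72 against 0.063 over all fragments, of which 43.3% lay below 0. Because the set was picked with its share in sham known, nothing is read from that direction. AS-tDR-007683 averaged 17160 ± 7247 TPM in treated rats and 36678 ± 9583 TPM in sham (SD, n = 3), and its log2 difference was -1.25 (SE 0.57, edgeR adjusted p = 0.997). AS-tDR-007744 averaged 10119 ± 3243 and 20549 ± 4726 TPM, with a log2 difference of -1.18 (SE 0.66, edgeR adjusted p = 0.997). For AS-tDR-007556 the means were 22521 ± 5327 and 34495 ± 6577 TPM and the log2 difference -0.77 (SE 0.23, edgeR adjusted p = 0.75). For AS-tDR-007881 they were 23861 ± 5176 and 33829 ± 5521 TPM and the log2 difference -0.66 (SE 0.22, edgeR adjusted p = 0.75). AS-tDR-007412 had -0.98 (SE 0.80), and AS-tDR-007516, AS-tDR-007639 and AS-tDR-008499 had -0.26, -0.28 and -0.15 (SE 0.23, 0.21 and 0.21), the last of which was 0.016 with recovered library totals. An adjusted p under 0.05 was found for 0 members and 0% of fragments with edgeR, and without sham 3 for 17 fragments, 0 of them members. In the same edgeR test AS-tDR-007556 and AS-tDR-007881 had an unadjusted p under 0.05, as had 4.18% of the fragments tested (3.96% lower). DESeq2 called 11 fragments, among them AS-tDR-007556 with a log2 fold change of -0.73 and an adjusted p of 0.04999, against 0.30 to 1 for the same fragment under the other alternatives, and limma-voom called 0. On TPM, 3 members were lower in each ICH + BYHWD library than in each sham library, as were 3.08% of all fragments tested. For AS-tDR-007744 and AS-tDR-007683 the gap exceeded counting error, and for AS-tDR-007881 it did not. The overlap of AS-tDR-007556 was within counting error too, so the count of members is not exact. Higher without overlap were 0 members and 7.47% of all fragments tested.

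**Figure D4:**
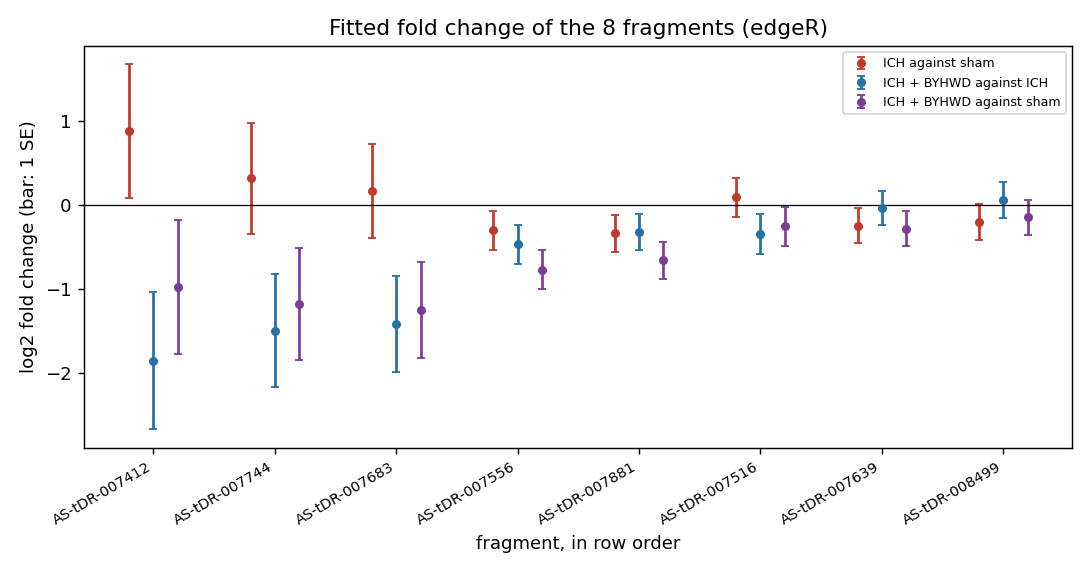
Fitted log2 fold change (y axis, edgeR, bars of 1 SE) of each of the 8 fragments in row order (x axis) for the 3 comparisons, which share groups. ICH + BYHWD against ICH runs from -1.85 for AS-tDR-007412 to 0.057 for AS-tDR-008499, and the bars are widest for the first 3 fragments.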

How the data were processed

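Per the file headers, each library's table gives a fragment identifier, the tag count and a TPM value. The tag counts are whole numbers as deposited by the authors. The deposited TPM column equals the count divided by 1 library total, times 1000000, which gave the totals. It has no term for fragment length and is thus another unit than strict TPM. FastQC, cutadapt and Novoalign 2.07.11, and the human build hg19, are listed per the submitters' processing notes. How tags were counted and fragments annotated is not stated there. Per the labels' protocols, RNA was treated to remove end and base modifications and inserts of 15 to 50 nt were selected, so longer fragments are not represented. The lowest listed count above 0 was 76 to 149 tags, so low fragments may be listed at 0.

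A fragment's repeated rows held identical values and 1 was kept. Counts were tested with edgeR 4.0.16 (R 4.3.3; TMM, filterByExpr with minimum count 10, robust quasi-likelihood fit of all 9 libraries, Benjamini-Hochberg over the 455 fragments left, threshold 0.05); the SE is the fold change over the root of its F. DESeq2 1.42.0 and limma 3.58.1 were alternatives. The edgeR and permutation steps were run on simulated data as a check of the code. The edgeR simulation did not cover a spread as wide as that of the first 3 fragments within ICH, so it gives no power for them. Members, lists and tests were chosen with earlier results of these data known; the test of all fragment pairs was added after the values were seen. All 8 members are named, and the 5 fragments most correlated with AS-tDR-007516. Groups came from the labels, numbers 1 to 3 only name libraries, and no 2 libraries were alike within sampling noise (chi-square per degree of freedom at least 44.4).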

Additional observations from a re-analysis of the deposited data

How the results depend on the processing

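edgeR called 0 fragments in each comparison. DESeq2 called 17 for ICH against sham, 6 for the decoction against ICH and 11 for treated rats against sham. Leaving out 1 library gave 0 to 44 calls, 0 calls and 0 to 17 calls respectively, the 44 and 17 without sham 3 and with 0 members among them. The cause was not tested. With listed tags as denominator, the mean share was 28.1% (sham), 22.8% (ICH) and 19.5% (ICH + BYHWD). With all tags as denominator, leaving out 1 library gave 18.9 to 21.6%, 17.0 to 18.4% and 13.3 to 16.4%, in the same order. No fragment correlated with AS-tDR-007516 at an adjusted p under 0.05 on linear TPM, log2 CPM, group deviations or without any 1 library (0 each). Of the 28 member pairs, 6 were called, 5 on linear TPM or log2 CPM, and 4 to 6 without 1 library, with 4 without ICH 2.

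Of 456 alternative values for the 24 member fold changes, 40 reversed and 1 passed the threshold (AS-tDR-007556, DESeq2). For ICH against sham with upper-quartile factors, no factors and recovered totals, AS-tDR-007744 had -0.0050, -0.15 and -0.031, AS-tDR-007683 -0.13, -0.26 and -0.14, and AS-tDR-007516 -0.12, -0.14 and -0.056. With limma-voom the first 2 had -0.13 and -0.082. Without the low-count filter, or with each zero raised to the library's lowest listed count, AS-tDR-007683 had -0.050 and -0.071 and AS-tDR-007516 -0.010 and -0.026. For ICH + BYHWD against ICH, AS-tDR-007639 had 0.19, 0.25, 0.22, 0.13 and 0.15 under the same 5 scaling and zero settings. AS-tDR-008499 against sham had 0.016 with recovered totals. Without 1 library, AS-tDR-007412 ran from -0.36 to 1.39, AS-tDR-007744 from -0.59 to 0.79, AS-tDR-007683 from -0.54 to 0.57 and AS-tDR-007516 from -0.11 to 0.10 for ICH against sham; AS-tDR-007639 from -0.18 to 0.13 and AS-tDR-008499 from -0.087 to 0.26 for ICH + BYHWD against ICH; and AS-tDR-008499 from -0.24 to 0.024 against sham. Without scaling factors the median log2 fold change of all fragments was -0.23, 0.22 and 0.19, from -0.019, -0.087 and 0.063. No paired analysis was possible because the titles share no replicate number. Without any 1 sham library, ICH 1, ICH + BYHWD 2 or the low-count filter, TMM's reference library was ICH + BYHWD 3 in place of sham 1. It was ICH + BYHWD 2 without ICH 2 and sham 3 without ICH + BYHWD 3. For ICH + BYHWD against ICH, AS-tDR-007639 had 0.13 without any 1 sham library and without the filter. The part of the reference library in these values was not tested. With 3 libraries a group and a wide ICH group, differences of the size seen in the first 3 fragments could not be settled.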

Other observations

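For AS-tDR-007683, AS-tDR-007516 and AS-tDR-008499, the most alike of 310 fragments lay outside the set. The outside fragments named here were picked as the most alike or most opposite after the values were seen. AS-tDR-008565, listed on 1 row with a mean of 586 TPM, had r = 0.96 and rho = 0.93 with AS-tDR-007683 over the 9 libraries (exact permutation p of rho = 0.00075, adjusted p of r = 0.0049 over all pairs), and 0.95 without ICH 2 and ICH + BYHWD 1. With AS-tDR-007744 and AS-tDR-007412 its r was 0.93 and 0.92. AS-tDR-001010, on 17 rows with a mean of 787 TPM, ran against the same 3 fragments, with r = -0.97 for AS-tDR-007744, -0.96 for AS-tDR-007412 and -0.90 for AS-tDR-007683 (adjusted exact permutation p = 0.0072, 0.0054 and 0.020). Without the 2 libraries farthest from the median of the member these were -0.90, -0.96 and -0.79. Without ICH 2 alone, AS-tDR-007744 and AS-tDR-007683 had 0 negative partners past the threshold, where 1.01% of all pairs were called.

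AS-tDR-007958, at a mean of 3353 TPM on 3 rows, had r = 0.98 and rho = 0.93 with AS-tDR-008499 (exact permutation p of rho = 0.00075, adjusted p of r = 0.0049), and 0.94 without ICH 2 and ICH + BYHWD 3. AS-tDR-007769, at 732 TPM on 7 rows, had r = 0.97 and rho = 0.95 with AS-tDR-007881 (exact permutation p of rho = 0.00035, adjusted p of r = 0.0062), and 0.99 without ICH 2 and ICH + BYHWD 1. What these fragments share with the members in sequence or origin was not analysed here.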
